A study of Saccharomyces cerevisiae with 9 samples.

Results

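The RNAs described here are transcribed from the mitochondrial genome of the budding yeast Saccharomyces cerevisiae. They are the 15S and 21S ribosomal RNAs, the messages COX1, COX2, COX3, COB, OLI1 and VAR1, and AI1 and AI2, reading frames that lie in introns of COX1. The 10 members were chosen by gene name among 7091 entries of the deposited tables. Of the 10, 6 had a row in the table for CdSe/ZnS quantum dots and 9 in the table for InP/ZnS quantum dots; COX3 was not analysed here, and COX2, COB and VAR1 were not analysed for CdSe/ZnS. Earlier results of these data were known when the members were chosen, so their levels and ratios are given as a description, and the authors' p and q beside them support nothing further.

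All groups were of S288C, the laboratory strain of the reference genome, in mid-log growth (optical density 0.3 to 0.6) in SD medium with glucose at 30 °C and 220 rpm. The 3 groups, of 3 libraries each, were untreated cells, cells given 10 µg/mL of CdSe/ZnS quantum dots and cells given 100 µg/mL of the InP/ZnS ones, each for 6 h. These are nanocrystals whose core, CdSe or InP, is coated with zinc sulfide. The doses are those of the design text; the treatment label has mg/mL for InP/ZnS, so that unit is uncertain. The doses differ between the dots, and the dots are not compared with each other. The labels do not say whether libraries came from separate cultures. RNA was selected by poly(A) tail with a stranded kit. The tables hold 1 FPKM (a fragment count scaled to transcript length and library size) per gene and condition, pooled over its libraries. No depth, replicate spread or value of a single library was therefore used, and whether 1 or all 3 libraries of a group carried a level cannot be told apart.

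Yeast mitochondrial DNA is a small genome, rich in A and T, that encodes a few membrane subunits of the respiratory chain and the ATP synthase, the RNAs of the mitochondrial ribosome, and a set of transfer RNAs. A nuclear-encoded RNA polymerase of phage type, Rpo41, with its factor Mtf1, starts transcription at a short conserved promoter, and long precursors are then cut and spliced. Yeast mitochondrial messages are not known to carry a poly(A) tail. In cells grown on glucose the respiratory system is known to be held at a low level.

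The promoter letters are shown first. Every member has a match somewhere upstream on its strand, so the letters do not set apart those with a measured level. The motif searched was ATATAAGTA, the consensus of yeast mitochondrial promoters, 9 bases long, on both strands of the RefSeq mitochondrial genome of assembly R64. It occurred 11 times on the strand that carries all the members and 3 times on the other. All 28 mitochondrial entries of the tables that were alone at their locus and in RefSeq had the same start and end there, so that genome was taken as the build of the files. Windows of 59 bases follow, with the motif in capitals, for 15S_rRNA (MT:6432-6490), 21S_rRNA (MT:57970-58028), COX1 (MT:13319-13377) and OLI1 (MT:46119-46177), all on the plus strand.
15S_rRNA: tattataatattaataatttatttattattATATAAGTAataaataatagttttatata
21S_rRNA: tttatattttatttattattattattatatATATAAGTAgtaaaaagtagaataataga
COX1: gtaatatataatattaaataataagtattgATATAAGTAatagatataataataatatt
OLI1: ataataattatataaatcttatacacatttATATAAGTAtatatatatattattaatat

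The distance from the motif to the gene differed among them. In 21S_rRNA the annotated start was the base next to the motif's last base, 1 bp away. In 15S_rRNA it was 76 bp away, in COX1 461 bp and in OLI1 566 bp. AI1 and AI2 share the COX1 start. Of the members, 6 of 10 had the motif on their strand within the 600 bp before the start, from 4 of 8 distinct starts; 6.99% of all windows of that length on that strand hold it. The window length was chosen with these distances in view, so the count of 6 follows from that choice. Nothing is read from it. COB, VAR1, COX2 and COX3 had no match in that window, with the nearest upstream match 1654, 2744, 8366 and 13821 bp away. Yeast mitochondrial genes are known to be transcribed in groups, so these letters alone do not tell which promoter serves a gene.

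In cells with CdSe/ZnS the mitochondrial RNAs stood far above their levels in untreated cells, and in cells with InP/ZnS they stayed low. All 6 members with a row in the CdSe/ZnS table were higher with CdSe/ZnS, by 185-fold for COX1 to 1066-fold for 15S_rRNA. These folds rest on untreated levels of 0.0849 to 4.44 FPKM and depend on them: with a pseudocount of 1 FPKM the log2 ratios ran from 3.94 for COX1 to 8.08 for 15S_rRNA, in place of 7.53 to 10.06, and with the untreated values of the InP/ZnS table from 5.96 to 10.40. The 9 mitochondrial entries tested there, members and others, held ranks 1 to 9 by log2 ratio without a pseudocount among 6321 tested entries. Rank 1 was AI4, on an untreated level of 0.000175 FPKM, with q = 0.335 by Cuffdiff in the authors' deposited table. Ranks with a pseudocount were not taken, so this order rests on very low untreated levels. The nuclear entry with the highest ratio, YDR406W-A, had a log2 ratio of 3.78 against 7.53 for COX1, the lowest member. By the authors' Cuffdiff test at q under 0.05, 4 of the 6 members were called higher in the authors' deposited table, where 9.59% of all tested entries were called higher and 43.6% lower. Because earlier results of these data were known when the members were chosen, nothing is read from that count. In bulk RNA, a higher level in each cell and more cells that carry it cannot be told apart.

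The ribosomal RNAs come first. 21S_rRNA, the RNA of the large mitochondrial ribosomal subunit (MT:58009-62447, 2 exons around an intron), stood at 1.80 FPKM in untreated cells and 643 FPKM with CdSe/ZnS. In the other table it stood at 1.72 FPKM untreated and 0.911 FPKM with InP/ZnS. Its CdSe/ZnS level was higher than that of 95.7% of the tested entries, and its untreated level higher than that of 0.949%. 15S_rRNA, the RNA of the small subunit (MT:6546-8194, no intron), stood at 0.339 FPKM untreated and 361 FPKM with CdSe/ZnS, and at 0.266 and 0.474 FPKM in the InP/ZnS table. The levels with CdSe/ZnS were the only high ones for both RNAs. The log2 ratio with CdSe/ZnS was 10.06 for 15S_rRNA and 8.48 for 21S_rRNA, with implied standard errors (log2 ratio over the authors' test score) of 0.71 and 0.32. Both had q = 0.000173 by Cuffdiff in the authors' deposited table, the smallest value it holds. With InP/ZnS both had too few reads for the authors' test, and their log2 ratios were 0.83 for 15S_rRNA and -0.91 for 21S_rRNA.

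Each mitochondrial ribosome holds both RNAs in equal number. The ratio of 21S_rRNA to 15S_rRNA, per length, was 1.78 with CdSe/ZnS and 5.32 in untreated cells of the same table. In the InP/ZnS table it was 1.92 with InP/ZnS and 6.44 in untreated cells. The untreated ratio and that with InP/ZnS rest on levels under 2 FPKM, where no error can be given.

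OLI1 (also ATP9), the message for the ring subunit of the ATP synthase, was the member with the highest level in every condition. Its gene (MT:46723-46953, 231 bp) has no intron. It stood at 4.44 FPKM in untreated cells and 1044 FPKM with CdSe/ZnS, and at 5.99995 and 10.6 FPKM untreated and with InP/ZnS in the other table. With CdSe/ZnS its level was above that of 97.7% of tested entries, and untreated above that of 3.84%. The log2 ratio with CdSe/ZnS was 7.88 with an implied standard error of 1.55, and it missed the threshold at q = 0.0521 by Cuffdiff in the authors' deposited table. OLI1 was also the 1 member with enough reads for the authors' test with InP/ZnS, where 23.9% of all tested entries were called higher and 17.2% lower. Its log2 ratio there was 0.82 (implied standard error 0.65), rank 579 of 6367, and it was not called, with p = 0.261 and q = 0.383 by Cuffdiff in the authors' deposited table. No member was called with InP/ZnS, and the count at an unadjusted p under 0.05 was likewise 0.

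COX1, the message for the catalytic subunit of cytochrome c oxidase (MT:13818-26701, 8 exons), stood at 0.0849 FPKM untreated and 15.7 FPKM with CdSe/ZnS. In the other table it stood at 0.252 FPKM untreated and 0.243 FPKM with InP/ZnS. The log2 ratio with CdSe/ZnS was 7.53 with an implied standard error of 2.17. COX1 missed the authors' threshold by more than OLI1 did, with p = 0.163 and q = 0.241 by Cuffdiff in the authors' deposited table. The score and the p of this table do not follow 1 normal curve, since a score of 3.47 would pass a normal test. With InP/ZnS the log2 ratio was -0.051 and there were too few reads for a test.

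AI1 and AI2 are reading frames that run from the COX1 start into its introns; such intron proteins are known to act in splicing and in copying their own intron. AI1 (MT:13818-16322) stood at 0.186 FPKM untreated and 61.6 FPKM with CdSe/ZnS, and at 0.164 and 0.0618 FPKM in the InP/ZnS table. AI2 (MT:13818-18830) stood at 0.130 FPKM untreated and 31.0 FPKM with CdSe/ZnS, and at 0.181 and 0.0165 FPKM in the InP/ZnS table. Both intron frames were thus above spliced COX1 in level with CdSe/ZnS. The log2 ratios with CdSe/ZnS were 8.37 for AI1 and 7.89 for AI2, with q = 0.00426 and q = 0.0270 by Cuffdiff in the authors' deposited table. With InP/ZnS the log2 ratios were -1.41 and -3.45, on levels too low for a test.

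The junction letters show what separates these entries. A read over the end of COX1 exon 1 either continues into the intron, as in AI1 (MT:13957-14016), or jumps from base 13986 to base 16435, as in COX1 and AI2 alike. The last 30 bases of exon 1 are in lower case and the 30 bases after the junction in capitals.
AI1: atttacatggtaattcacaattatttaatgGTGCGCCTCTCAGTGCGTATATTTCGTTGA
COX1 and AI2: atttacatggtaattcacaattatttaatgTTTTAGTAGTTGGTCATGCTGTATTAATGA
Reads inside exon 1 belong to all these entries, so the authors' software had to divide them, and the split between AI1, AI2 and COX1 is uncertain. AI4, which starts with the same exon, was listed at 0.000175 FPKM untreated and 6.62 FPKM with CdSe/ZnS, with q = 0.335 by Cuffdiff in the authors' deposited table.

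**Figure D1:**
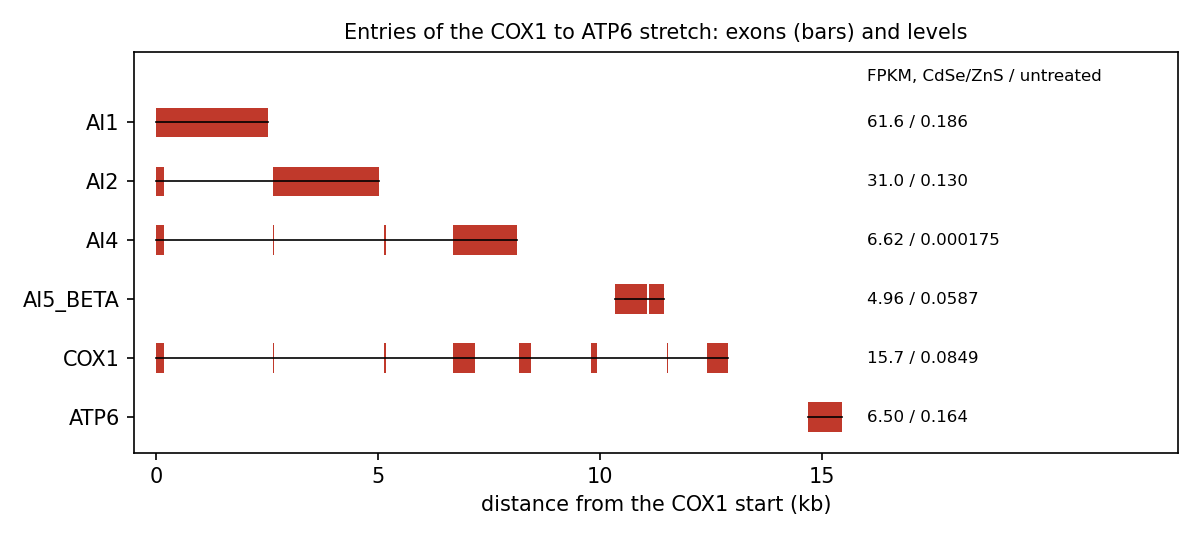
Exons (bars) and introns or gaps (lines) of the tested entries from COX1 to ATP6, by distance from the COX1 start in kb, with the FPKM with CdSe/ZnS and untreated at the right. AI1 has the highest level with CdSe/ZnS at 61.6 FPKM, and the entries that end furthest downstream lie between 4.96 and 15.7 FPKM.

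Along this stretch, where COX1 is known to be transcribed together with ATP8 and ATP6, levels with CdSe/ZnS were highest for AI1 and AI2, which end nearest to the start. AI1 ends 2.505 kb from it, AI2 5.013 kb, AI4 8.118 kb and AI5_BETA 11.438 kb, in the order of falling level (61.6, 31.0, 6.62 and 4.96 FPKM). COX1 and ATP6 do not follow that order, and the order rests on the uncertain split between overlapping entries. COX1 ends at 12.884 kb and stood at 15.7 FPKM. ATP6, an ATP synthase subunit message that starts 14.669 kb downstream, stood at 0.164 FPKM untreated and 6.50 FPKM with CdSe/ZnS. Neither ATP6 (q = 0.271) nor AI5_BETA (q = 0.220) was called by Cuffdiff in the authors' deposited table, and neither was analysed here for InP/ZnS.

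COX2 and COB, messages for subunits of cytochrome c oxidase and of the cytochrome bc1 complex, and VAR1, the message for a protein of the small mitochondrial ribosomal subunit, were listed at 0 in untreated cells and with InP/ZnS. The intron frames AI3, AI5_ALPHA, BI2, BI3 and BI4, the intron endonuclease gene SCEI and RPM1, the RNA of mitochondrial RNase P, were likewise listed at 0 in that table. All were marked as having too few reads for the test.

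**Figure D2:**
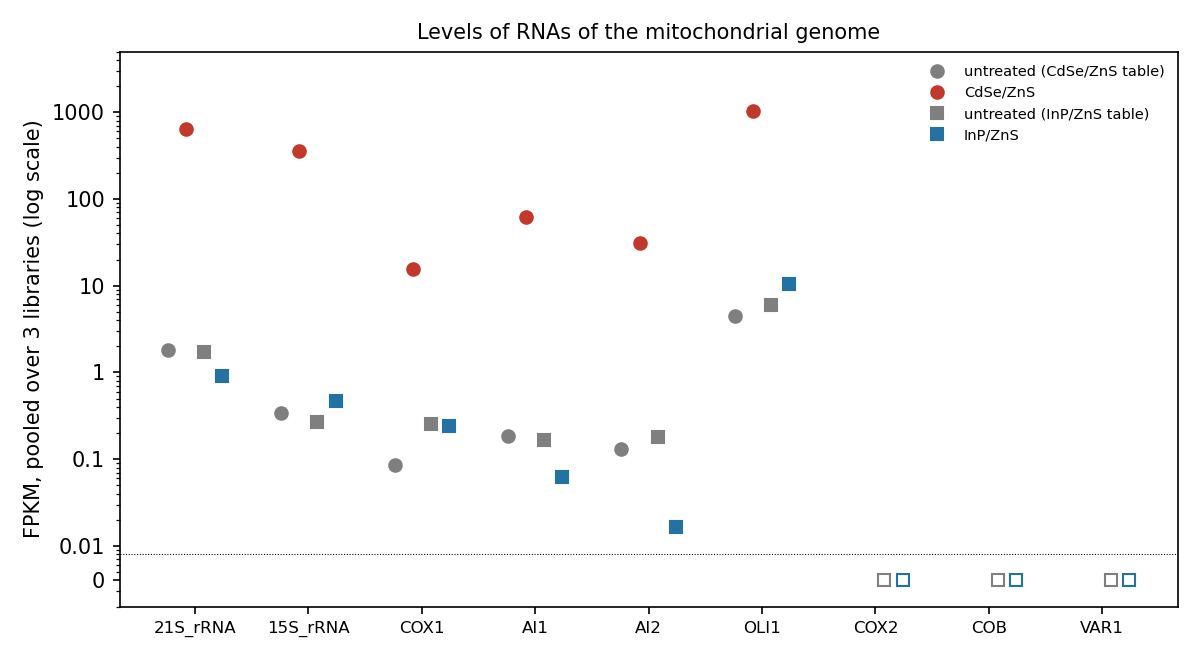
FPKM of the 9 members with a row (log axis; 1 pooled value per condition; open symbols below the dotted line are listed at 0), untreated in each table, with CdSe/ZnS and with InP/ZnS. The CdSe/ZnS points lie between 15.7 and 1044 FPKM, and every other point is at 10.6 FPKM or lower.

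Sums of FPKM cover only the mitochondrial entries with a value above 0, which numbered 9 in the CdSe/ZnS table and 7 in the other; ATP6 and AI5_BETA were among the 9 alone. COX2, COX3, COB and VAR1, among others, have no part in the sum with CdSe/ZnS. Over these entries FPKM went from 7.20 in untreated cells to 2174 with CdSe/ZnS, a 302-fold ratio, and from 8.58 to 12.3 with InP/ZnS. As a share of all FPKM this was 0.000476% untreated and 0.207% with CdSe/ZnS, and 0.000488% untreated and 0.000685% with InP/ZnS. All FPKM came to 1.51e+06 untreated and 1.05e+06 with CdSe/ZnS. Entries with too many reads to test, among them 8 of cytosolic ribosomal RNA listed at 0, are not counted in it. OLI1, 21S_rRNA and 15S_rRNA made up 94.2% of the mitochondrial sum with CdSe/ZnS and 91.3% untreated. The share of 15S_rRNA in it was 16.6% with CdSe/ZnS and 4.71% untreated, and that of OLI1 was 48.0% and 61.6%. Among the 9 entries, OLI1 and 21S_rRNA had the highest levels in both conditions.

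The shortest mitochondrial transcripts of known length gave no values. All 23 mitochondrial tRNA entries of the CdSe/ZnS table and all 24 of the InP/ZnS table were listed at 0 in both conditions. ATP8, an ATP synthase subunit message of 147 bp that lies between COX1 and ATP6, was also listed at 0. So were the entries Q0017, Q0032, Q0092, Q0142, Q0143 and Q0144 in both comparisons, for which no length was at hand. Q0010, Q0182 and Q0255 were listed at 0 in untreated cells and with InP/ZnS, and were not analysed for CdSe/ZnS. Of 54 nuclear entries of up to 150 bp, 46.3% were listed at 0 in both conditions of the CdSe/ZnS table, against 1.51% of 5681 entries over 300 bp. Not every nuclear entry was counted by length, and the part of length in the mitochondrial zeros was not tested. OLI1, at 231 bp, was the shortest mitochondrial entry with a value.

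The untreated libraries were processed once with each treatment, which gives a second view of the same low levels. The ratio of the untreated FPKM in the InP/ZnS table to that in the CdSe/ZnS table was 0.952 for 21S_rRNA, 0.786 for 15S_rRNA, 0.881 for AI1, 1.35 for OLI1, 1.39 for AI2 and 2.96 for COX1. Over 6290 entries tested in both tables its median was 1.14, and 95% of them lay between 0.957 and 1.37. This spread is that of processing the same libraries again and says nothing of the spread between libraries. With the untreated value of the other table, COX1 had a log2 ratio of 5.96 with CdSe/ZnS in place of 7.53, and of 1.52 with InP/ZnS in place of -0.051, so its sign there depended on which untreated value was used.

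**Figure D3:**
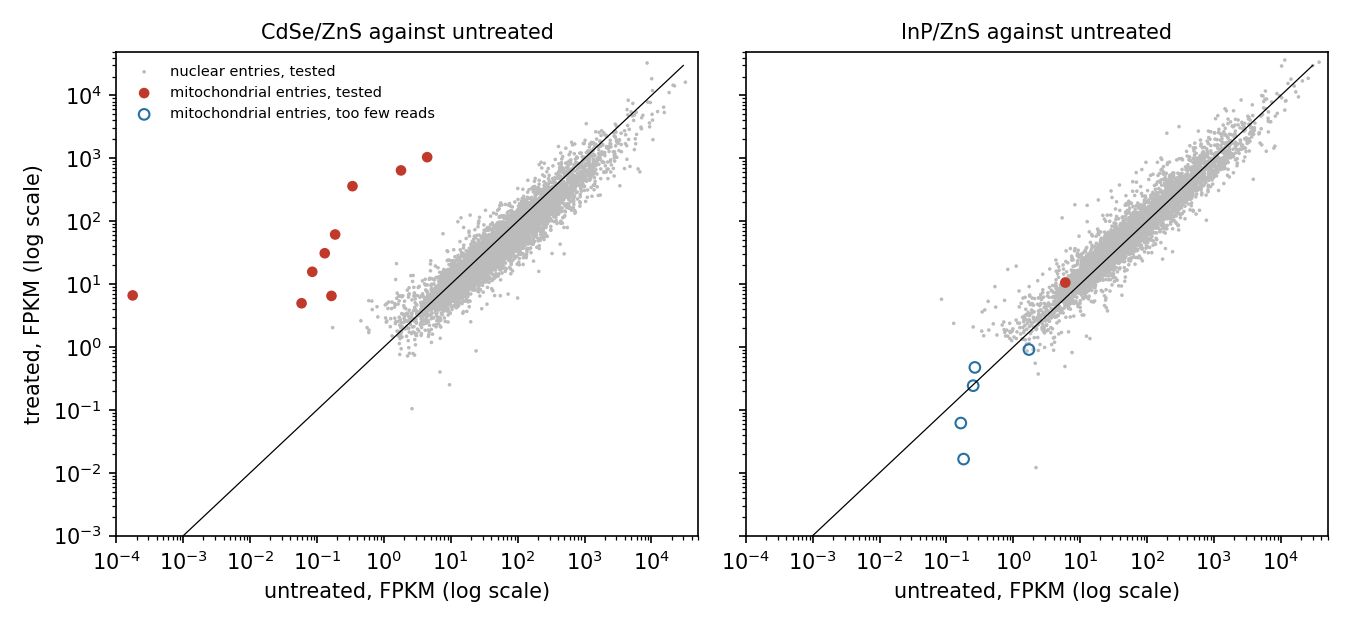
FPKM in treated against untreated cells (log axes, 1 pooled value per condition; line, equal levels) with CdSe/ZnS on the left and InP/ZnS on the right; gray, tested nuclear entries; red, tested mitochondrial entries; open blue circles, mitochondrial entries with too few reads to test. With CdSe/ZnS the 9 tested mitochondrial entries stand apart from the nuclear ones, above the line; with InP/ZnS OLI1 (10.6 FPKM) lies among the nuclear entries and the others at 0.911 FPKM or lower on both sides of the line, and entries listed at 0, and AI4, at 0.000142 FPKM with InP/ZnS, are outside the axes.

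The nuclear entries nearest in pattern lay far off. This was fixed in advance, since no tested nuclear entry had a log2 ratio above 3.78 with CdSe/ZnS. Earlier results of these data were also known when the members were chosen. Among 5715 nuclear entries tested in both tables with at least 10 FPKM in either condition of each, likeness was taken as the Euclidean distance between pairs of log2 ratios, over 2 comparisons that share their untreated libraries. The entries nearest to 21S_rRNA were snR189, a small nucleolar RNA, YMR307C-A and YNL067W-A, at distances of 6.09, 6.12 and 6.27. The same 3 were nearest to COX1, at 4.88, 4.97 and 5.04. The ratios of 21S_rRNA and COX1 with InP/ZnS are those of levels under 2 FPKM with too few reads to test. snR189 had log2 ratios of 2.996 with CdSe/ZnS and 1.74 with InP/ZnS.

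The libraries were made with a poly(A) kit, so other RNAs that lack a poly(A) tail were examined beside the mitochondrial ones. In a list of cytosolic ribosomal, spliceosomal and small nucleolar RNAs, the signal recognition RNA SCR1 and the RNase RNAs RPR1 and NME1, 12 of 52 tested entries rose with CdSe/ZnS and 1 fell by Cuffdiff in the authors' deposited table, beside 9.59% higher and 43.6% lower over all tested entries. The list's median log2 ratio was 0.48, against -0.35 for all tested entries. LSR1, the U2 spliceosomal RNA, rose from 39.4 to 120 FPKM, SCR1 from 56.0 to 88.5 FPKM, snR83 from 33.0 to 149 FPKM and NME1 from 12.8 to 28.6 FPKM. RPR1 stood at 22.7 and 32.4 FPKM and did not pass. The lowest log2 ratios were those of snR18 (1549 and 352 FPKM) and snR64 (693 and 185 FPKM), which did not pass either. Of the 52 tested entries 7 share a locus with another entry, snR18 among them, so their levels are uncertain. The most raised entries of the list stood 4.52-fold higher if called (snR83), or 7.98-fold if not (snR189). With InP/ZnS 7 of 53 rose and 2 fell, with a median log2 ratio of 0.16 against 0.067. That is a smaller part than the 23.9% higher and 17.2% lower over all entries. It is not read as smaller changes. The highest ratios, of snR51 (3.73-fold, implied standard error 0.74) and snR85 (3.40-fold, 1.05), did not pass. The median implied standard error over all tested entries was 0.246. snR11 rose from 136 to 283 FPKM, and LSR1 stood at 44.7 and 38.2 FPKM. snR76, which guides modification of ribosomal RNA, fell in both comparisons, from 2260 to 676 FPKM with CdSe/ZnS and from 2214 to 762 FPKM with InP/ZnS. On this list, 8 entries of the cytosolic ribosomal RNA repeat were marked as having too many reads to test in the table for CdSe/ZnS and too few in that for InP/ZnS. The same untreated libraries went into both comparisons. Which libraries held the excess of reads, and whether the settings were equal in both comparisons, is not given and was not tested. The part of poly(A) selection in the mitochondrial levels was not tested.

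Nuclear genes that serve the mitochondrial genome are described next, against a table in which lower levels with CdSe/ZnS were common. Over 6 lists, which hold 72 distinct genes, 1 rose and 46 fell with CdSe/ZnS by Cuffdiff in the authors' deposited table, beside 9.59% higher and 43.6% lower over all tested entries. Their median log2 ratio was -0.52, or -0.18 relative to the median of all tested entries. Taken relative to that median in a normal test on the implied standard errors, 1 was higher and 14 lower, where the calls over all entries were 11.9% higher and 13.6% lower. That test takes the score as normal, which the table's p-values do not always bear out, so its counts are given only to show how far the shift of all entries sets the calls. With InP/ZnS 17 of 72 rose and 13 fell, beside 23.9% and 17.2% over all, with a median of -0.022 against 0.067; relative to the median 3 were higher and 5 lower, with 7.87% and 8.32% over all entries.

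Of 8 genes for transcription and upkeep of the mitochondrial DNA, 5 fell and 0 rose with CdSe/ZnS (43.6% lower over all entries). Relative to the median 1 was lower (13.6% over all entries). RPO41, the RNA polymerase gene, stood at 8.89 FPKM untreated and 7.22 FPKM with CdSe/ZnS (q = 0.0890, Cuffdiff, the authors' deposited table). MTF1, its promoter recognition factor, fell from 16.2 to 9.33 FPKM, and MGM101, a DNA repair protein of the mitochondrial nucleoid, from 59.1 to 21.7 FPKM. ABF2, the protein that packs the DNA, stood at 155 and 132 FPKM with CdSe/ZnS without passing, and rose from 178 to 237 FPKM with InP/ZnS. MIP1, the DNA polymerase gene, stood at 15.6 and 15.2 FPKM with CdSe/ZnS. With InP/ZnS 1 of the 8 rose and 2 fell, beside 23.9% higher and 17.2% lower over all entries. Relative to the median 0 were higher and 1 lower, beside 7.87% and 8.32%. The 2 that fell were MGM101 (69.5 to 44.3 FPKM) and the helicase gene PIF1 (7.12 to 5.02 FPKM). RPO41 (9.75 and 10.8 FPKM) and MTF1 (18.0 and 20.6 FPKM) did not pass with InP/ZnS.

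Among 20 genes of mitochondrial RNA processing and decay, 14 fell and 1 rose with CdSe/ZnS, where 43.6% of all entries were lower and 9.59% higher. SUV3 and DSS1, the helicase and nuclease of the mitochondrial degradosome that destroys RNA and excised introns, fell from 11.7 to 7.27 FPKM and from 21.01 to 15.5 FPKM. PET127, a gene of 5′ end processing, fell from 6.78 to 3.89 FPKM, and SLS1, which is known to couple transcription to translation, from 21.6 to 8.65 FPKM. TRZ1, the tRNA 3′ end nuclease, rose from 9.97 to 12.9 FPKM. With the test relative to the median of all entries, 3 were lower and 1 higher, beside 13.6% and 11.9% over all. With InP/ZnS 5 rose and 4 fell, beside 23.9% higher and 17.2% lower over all entries. Among those that rose was NCA2 (25.7 to 49.4 FPKM). Among those that fell were SUV3 (13.3 to 9.78 FPKM) and NUC1, a mitochondrial nuclease (44.5 to 25.2 FPKM). DSS1 (22.8 and 23.1 FPKM) and PET127 (8.11 and 6.97 FPKM) did not pass with InP/ZnS.

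For intron splicing, 5 of 9 genes fell and 0 rose with CdSe/ZnS, and 2 fell and 1 rose with InP/ZnS. Over all entries 43.6% were lower with CdSe/ZnS, and 17.2% were lower and 23.9% higher with InP/ZnS. Relative to the median, by contrast with the authors' test, 1 of the 9 was lower with CdSe/ZnS and 0 were called with InP/ZnS. In that test 13.6% of all entries were lower with CdSe/ZnS. QRI5 (also COX24), a factor known to act in COX1 intron removal, fell from 242 to 55.1 FPKM with CdSe/ZnS. MRS1, a splicing factor of COX1 and COB introns that shares its locus with another entry, fell from 6.54 to 2.34 FPKM. CBP2, a splicing protein of a COB intron (29.9 and 25.7 FPKM), and MSS116, an RNA helicase of mitochondrial splicing (40.3 and 38.4 FPKM), did not pass. With InP/ZnS PET54, which acts in COX1 splicing and COX3 translation, rose from 28.2 to 36.9 FPKM.

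Translation genes fell into message-specific activators and general factors. Of 16 activators, 8 fell and 0 rose with CdSe/ZnS, where 43.6% of all entries were lower. With InP/ZnS 1 fell and 8 rose, where 17.2% of all entries were lower and 23.9% higher. Relative to the median 1 was lower with CdSe/ZnS and 1 lower, with 0 higher, with InP/ZnS. In that test 13.6% of all entries were lower with CdSe/ZnS and 8.32% with InP/ZnS. CBP1, which stabilises the COB message, fell from 17.2 to 7.24 FPKM with CdSe/ZnS and from 18.7 to 12.2 FPKM with InP/ZnS. CBP6, an activator of COB translation, rose from 22.4 to 40.9 FPKM with InP/ZnS. ATP25, which acts on the OLI1 message, stood at 15.7 and 18.1 FPKM with CdSe/ZnS and did not pass. Of 8 general factors 4 fell and 0 rose with CdSe/ZnS, and 1 fell and 2 rose with InP/ZnS, beside the same shares over all entries; relative to the median 3 were lower with CdSe/ZnS and 0 were called with InP/ZnS. MEF1, a mitochondrial elongation factor gene, fell from 16.5 to 6.83 FPKM with CdSe/ZnS and from 18.9 to 14.5 FPKM with InP/ZnS, while TUF1, another elongation factor gene, stood at 136 and 150 FPKM with CdSe/ZnS and did not pass.

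Proteins made in mitochondria are inserted and joined to nuclear-encoded partners. Of 17 insertion and assembly genes 13 fell and 0 rose with CdSe/ZnS, beside 43.6% lower over all entries. Relative to the median 6 were lower, beside 13.6% of all entries. COX14, which acts in assembly of cytochrome c oxidase, fell from 995 to 309 FPKM and ATP11, an ATP synthase chaperone, from 53.4 to 19.0 FPKM. With InP/ZnS 4 fell and 2 rose, beside 17.2% lower and 23.9% higher over all entries. Relative to the median 1 was lower and 1 higher, beside 8.32% and 7.87%. OXA1, the membrane insertase, fell from 111 to 51.9 FPKM with InP/ZnS and CBP4, a bc1 assembly factor, rose from 144 to 285 FPKM. Of 30 nuclear genes for subunits of the complexes that hold Cox1, cytochrome b or Oli1, 23 fell and 0 rose with CdSe/ZnS, with a median log2 ratio of -0.71, and 22 rose and 0 fell with InP/ZnS, with a median of 0.47, beside 43.6% lower and 23.9% higher over all entries. Relative to the median of all entries 10 were lower and 2 higher with CdSe/ZnS, where 13.6% of all entries were lower and 11.9% higher. In that test 2 were higher and 0 lower with InP/ZnS, where 7.87% of all entries were higher and 8.32% lower. COX5B, an isoform of a cytochrome c oxidase subunit, fell from 601 to 245 FPKM with CdSe/ZnS and rose from 708 to 1193 FPKM with InP/ZnS. Both comparisons share their untreated libraries.

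**Figure D4:**
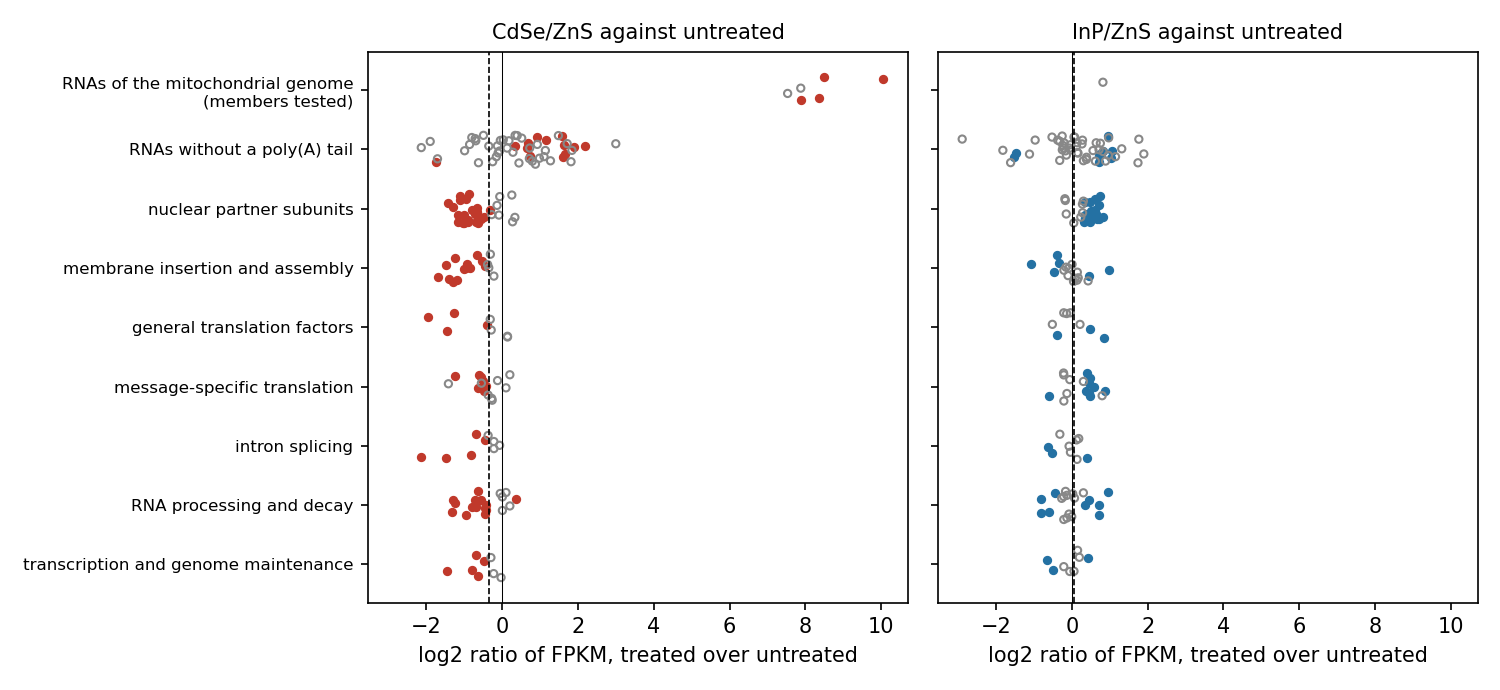
Log2 ratio of FPKM, treated over untreated, of each tested gene by list (filled points, called by the authors' test at q under 0.05; open points, not called), with CdSe/ZnS on the left and InP/ZnS on the right. The 6 tested members lie between 7.53 and 10.06 with CdSe/ZnS, and all machinery genes lie at or under 0.37; the dashed line is the median of all tested entries (-0.35 and 0.067) and the solid line is 0.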

How the data were processed

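RNA of 9 yeast libraries was sequenced. Per the authors' deposited text sheets, low-quality bases (under 20) and the first 12 bases at the 5′ end were cut off, reads under 80 bp were dropped, and the rest were aligned with TopHat to the S288C genome of SGD and processed with Cufflinks. Cuffdiff, per the submitters' processing notes, made the comparisons. No version, build or strand setting is given in the sources used here, so overlapping genes are uncertain. The authors deposited FPKM as 1 value per gene and condition. The deposited log2 fold change, test score, p-value and q-value are those of the authors' test, per the file headers. The treated column is the one that is higher for all 606 and 1522 entries of the authors' deposited sheets of higher genes.

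From the FPKM, log2 ratios without a pseudocount were computed with Python 3.11.15 and pandas 2.3.3; they differed from the authors' deposited log2 values by at most 4.18e-05. Entries tested numbered 6321 and 6367. The depth is unknown, and since no label speaks of separate cultures, p-values may reflect technical spread alone. The normal test relative to the median (scipy 1.17.1, Benjamini-Hochberg adjustment over all tested entries) was run on simulated data. Their noise was drawn as normal with the implied standard errors, as the test assumes. The simulation therefore cannot tell how the test does on the authors' scores. Members and lists were chosen with earlier results of these data known. Named were all members and the other mitochondrial entries, the tRNAs only as a group. From each list and comparison, genes among the 2 highest and 2 lowest log2 ratios with at least 5 FPKM were named. RPO41, MTF1, ABF2, SUV3, DSS1 and PET127 were always named, as were the 3 nuclear entries nearest to 21S_rRNA and to COX1. Named after their values were seen were YDR406W-A, LSR1, SCR1, NME1, RPR1, snR11 and snR76. Older names were matched through RefSeq.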

Additional observations from a re-analysis of the deposited data

How the results depend on the processing

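The members' direction with CdSe/ZnS was the same under each alternative run. Ratios of that size could not be reversed by these settings, so nothing is read from the unchanged direction. The members' median log2 ratio was 8.13 as reported, 6.65 with a pseudocount of 1 FPKM, 8.48 relative to the median of all tested genes and 7.996 with the untreated value of the other table. Calls by the authors' test were 4 as reported, 3 at q under 0.01 and 4 with a floor of 1 FPKM. With InP/ZnS the median of the members with a ratio was -0.48, and -0.072, -0.55 and -0.25 under those 3 settings, and COX1 turned from -0.051 to 1.52 with the other untreated value; the cause was not tested. The normal test relative to the median, which takes the authors' score as normal, lowered the machinery calls from 47 to 15 with CdSe/ZnS and from 30 to 8 with InP/ZnS. For RNAs without a poly(A) tail, calls went from 13 to 8 with CdSe/ZnS and from 9 to 3 with InP/ZnS at q under 0.01. In the normal test they were 14 with CdSe/ZnS (13 higher, 1 lower) and 4 with InP/ZnS (3 higher, 1 lower). No paired analysis was possible because the tables hold pooled values only; for that reason leaving out a replicate was not run. With pooled FPKM the levels under 1 FPKM are the least certain.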
